A study of Mus musculus with 4 samples.

Results

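T cell receptor variable segments are the germline gene pieces that a developing T cell joins to diversity and joining segments to build the antigen-binding part of its receptor. They were taken from a table of gene expression in lamina propria mononuclear cells, the immune cell preparation from the connective tissue layer under the gut lining. Every row whose mouse symbol is that of an alpha, beta, gamma or delta variable segment was taken (symbols beginning with Trav, Trbv, Trgv or Trdv and a digit). This gave 170 of the 48526 genes in the table, namely 128 alpha, 35 beta, 6 delta and 1 gamma segments. Of these, 64 were listed at 0 in all 4 samples, 77 had other values with a mean under 4, and 29 had a mean of 4 or more over the 4 samples and were tested. The 29 were 10 alpha segments, 17 beta segments, Trdv4 and Trgv2. Of these, 26 reached 4 in both group means, and 3 did so in 1 group only: Trav9-1 (group means 3.96 in wild type and 4.39 in DKO), Trav10 (4.22 and 3.87) and Trav12-2 (4.17 and 3.84). A segment that passed through 1 group had to differ, so the counts over the 29 carry that limit.

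The 4 samples came from mice given CD4 T cells by transfer. For 2 of them the donor cells were wild type (wt in the labels), and colitis was described as pronounced. For the other 2 the donor cells lacked Hobit and Blimp, transcriptional repressors of tissue-resident lymphocytes (Hobit x Blimp DKO, called DKO here), and colitis was described as mild. Strain, age, sex and immune status of the recipients, and the time after transfer, are not stated in these sources. The genotype belongs to the donor cells, and receptor transcripts of any T cells of the recipient would be counted with theirs. Each group holds 2 biological replicates by the series design, which names no animals. The spread among these samples may therefore be technical, and no p reaches beyond these samples. Each p rests on a gene's own spread and more on that of all genes tested (2 residual and 8.9 prior degrees of freedom).

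Most T cells carry a receptor of 1 alpha and 1 beta chain, and a minority carry a gamma and a delta chain. A T cell clone and all its daughters use the same rearranged variable segments, so the level of a segment in a tissue depends on how many T cells use it and on which clones have expanded. In transfer colitis CD4 T cells expand in the gut wall, and different recipients can carry different clones. Values are regularized log2 expression (rlog) as deposited, a log2 scale on which the differences of genes with few reads are pulled towards 0. The depth of each sample is unknown. A lower level in such bulk samples can mean fewer cells of a type or less RNA per cell, which cannot be told apart.

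The 3 segments that passed the test between the groups are Trbv14, Trbv13-2 and Trav9-1, and their variable exons are shown as the segments called in the comparison, of which Trav9-1 reached the minimum for testing in DKO only. Each is the coding part of the last exon, from GENCODE M21 transcripts on build GRCm38, plus strand, 5′ to 3′. Capitals mark the 3′ end from the last in-frame TGT or TGC codon, the conserved cysteine at which the third complementarity-determining region begins. Rearrangement trims this end and adds bases to it, so the capitals are the part that can differ between germline and receptor. Trbv14 lies at chr6:41135320-41135616, Trbv13-2 at chr6:41121539-41121832 and Trav9-1 at chr14:53488277-53488567.
Trbv14: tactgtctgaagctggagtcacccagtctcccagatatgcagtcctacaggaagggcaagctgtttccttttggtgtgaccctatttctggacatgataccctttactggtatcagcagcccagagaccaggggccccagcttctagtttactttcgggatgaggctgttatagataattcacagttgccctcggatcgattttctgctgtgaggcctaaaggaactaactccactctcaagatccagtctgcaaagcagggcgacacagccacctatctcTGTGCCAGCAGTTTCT
Trbv13-2: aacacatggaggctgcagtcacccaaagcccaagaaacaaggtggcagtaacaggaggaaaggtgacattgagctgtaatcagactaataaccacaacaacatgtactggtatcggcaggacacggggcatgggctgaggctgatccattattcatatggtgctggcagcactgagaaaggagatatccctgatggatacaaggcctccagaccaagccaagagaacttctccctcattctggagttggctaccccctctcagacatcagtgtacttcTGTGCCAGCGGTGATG
Trav9-1: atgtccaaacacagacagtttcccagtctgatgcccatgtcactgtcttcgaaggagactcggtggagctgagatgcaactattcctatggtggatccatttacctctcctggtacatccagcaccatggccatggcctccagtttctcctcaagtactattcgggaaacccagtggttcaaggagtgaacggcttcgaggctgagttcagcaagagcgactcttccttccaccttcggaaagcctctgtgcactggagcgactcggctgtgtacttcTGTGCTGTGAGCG

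Trbv14 and Trbv13-2 are 53.0% identical over their variable exons. Trbv13-2 is 88.8% identical to Trbv13-1 and 91.8% identical to Trbv13-3, which lie on either side of it with other segments between. The 3′ ends of those relatives, of Trbv12-2 and Trbv15, which both stood highest in DKO replicate 2, and of a pair of near-identical alpha segments are shown for comparison. Each is the last 60 bases of the exon, on the plus strand of GRCm38, with capitals as above. The coordinates are chr6:41116409-41116468 for Trbv13-1, chr6:41130526-41130585 for Trbv13-3, chr6:41119305-41119364 for Trbv12-2 and chr6:41141599-41141658 for Trbv15. They are chr14:53370516-53370575 for Trav14n-3 and chr14:53078986-53079045 for Trav14d-3-dv8.
Trbv13-1: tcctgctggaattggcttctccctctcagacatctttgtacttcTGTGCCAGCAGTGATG
Trbv13-3: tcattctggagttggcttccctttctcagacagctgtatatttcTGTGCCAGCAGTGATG
Trbv12-2: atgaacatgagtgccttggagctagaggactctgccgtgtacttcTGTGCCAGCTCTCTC
Trbv15: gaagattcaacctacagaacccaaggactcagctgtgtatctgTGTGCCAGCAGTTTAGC
Trav14n-3: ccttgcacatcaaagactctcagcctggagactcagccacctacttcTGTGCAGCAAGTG
Trav14d-3-dv8: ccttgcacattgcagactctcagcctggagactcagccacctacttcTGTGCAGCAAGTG

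The constant segments of the alpha chain (Trac) and of the beta chain (Trbc1 and Trbc2) were measured first as a check of the T cells in the preparation. Trac, the alpha constant segment, had rlog values of 11.95 and 12.05 after wild-type transfer and 11.63 and 11.85 after DKO transfer. The difference of -0.26 (SE 0.0950) did not pass (adjusted p = 0.0986 in limma with Benjamini-Hochberg adjustment over all 13528 genes tested). Trbc1 stood at 11.56, 11.55, 11.58 and 11.66, and Trbc2 at 12.53 and 12.75 in wild type against 12.06 and 12.51 in DKO. Neither passed (adjusted p = 0.668 and 0.121). The coreceptor gene Cd4 was at 12.16, 12.17, 12.00 and 12.16. Of 8 genes that mark T cells 0 passed, beside 14.8% of all genes tested. Their summed level was 15.09 and 15.18 in wild type and 14.83 and 15.05 in DKO, lower in both DKO samples.

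Other lymphocytes were present beside CD4 T cells. The genes of the CD8 coreceptor were highest in DKO replicate 2, with Cd8b1 at 8.09 there and at 6.04, 6.10 and 6.04 in wild-type replicates 1 and 2 and DKO replicate 1. Cd8a was at 9.64 there and at 8.15, 8.92 and 8.23 in the same order, and neither gene passed between the groups (adjusted p = 0.193 and 0.528 for Cd8b1 and Cd8a). All 4 natural killer cell markers were above the minimum, with a summed level of 9.74 to 9.96 in wild type and 9.92 to 10.26 in DKO. Of 5 innate lymphoid cell markers 1 passed, beside 14.8% of all genes tested. This was Kit, a growth factor receptor that mast cells also carry. Kit rose from 9.81 and 9.63 to 10.51 and 10.35 (log2 fold change 0.71, SE 0.0922, adjusted p = 0.000349). Of 8 B and plasma cell markers 3 were tested and 0 passed, and their summed level was 9.33 and 9.39 in wild type and 9.34 and 8.99 in DKO. Pax5, a transcription factor that defines B cells, was listed at 0 in all 4 samples, and so was Rag2, a subunit of the recombinase that joins the segments. Rag1, the other subunit, lay between 2.34 and 2.51. Of 13 genes of recombination and end joining 10 were tested and 1 passed, beside 14.8% of all genes tested. Dntt, which adds bases at the joints, fell from 4.92 and 4.71 to 4.17 and 4.01 (log2 fold change -0.73, SE 0.122, adjusted p = 0.00178).

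In the comparison of the groups, which asks whether the receptors present in the lamina propria differed when the transferred cells lacked both repressors, 1 segment fell and 2 rose in DKO, 1 of which, Trav9-1, passed the filter through DKO alone. These 3 of 29 segments are 10.3%, beside 14.8% of all genes tested. By direction, 9.92% of all genes tested rose and 4.85% fell. The groups did not overlap for 8 of the 29 segments (27.6%), beside 55.3% of all genes tested. DKO was higher without overlap in 5 segments, beside 25% of all genes tested, and lower in 3, beside 30.3%. Over the 26 segments that reached 4 in both group means, the calls were 1 lower and 1 higher (7.69%), beside 14.5% of the 13402 genes that did so. The groups did not overlap for 5 of the 26 (19.2%), beside 55% of those genes. The median difference over the 29 was 0.089, with 18 segments at a higher mean in DKO and 11 at a lower one. Over all genes tested the median was -0.022, and 44.7% had a higher mean in DKO. With 2 samples against 2 an exact permutation test cannot give a p below 0.333, so no single segment could be tested in that way. Leaving out wild-type replicate 1 gave 2 lower and 0 higher calls, and wild-type replicate 2 gave 1 and 2. Leaving out DKO replicate 1 gave 2 lower and 6 higher calls, and DKO replicate 2 gave 6 and 7. In each of these fits the residual spread comes from the remaining pair alone, and the lone sample is assumed to vary like that pair.

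Trbv14, a beta segment, stood at 7.19 and 8.74 in wild-type replicates 1 and 2 and at 6.08 and 6.41 in DKO replicates 1 and 2. Both DKO samples lay below both wild-type samples, and the wild-type samples lay 1.55 apart. It fell by 1.72 on the log2 scale (SE 0.355, adjusted p = 0.00672 in limma), a fold of 3.29. The size of the fall rests in part on wild-type replicate 2, without which it was -0.94, and without wild-type replicate 1 it was -2.49. With a robust variance estimate it did not pass (adjusted p = 0.347), nor with no filter on low values (adjusted p = 0.261).

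Trbv13-2, the beta segment with the highest level per length, stood at 8.65 and 8.81 in wild type and at 9.14 and 9.11 in DKO. The DKO samples lay 0.027 apart and above both wild-type samples. It rose by 0.40 (SE 0.0905, adjusted p = 0.0123), a fold of 1.32. The call was lost when wild-type replicate 1 was left out (adjusted p = 0.130) and with no filter (adjusted p = 0.115). Neither of its close relatives in sequence passed. Trbv13-1 was at 7.02, 7.43, 6.65 and 7.23 in wild-type replicates 1 and 2 and DKO replicates 1 and 2 (difference -0.28, adjusted p = 0.371), and Trbv13-3 at 6.95, 6.93, 7.56 and 6.73 (difference 0.21, adjusted p = 0.586). Whether the 3 relatives differ in their change was not tested.

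Trav9-1, an alpha segment near the minimum for testing, stood at 4.02 and 3.90 in wild type and at 4.31 and 4.48 in DKO. The groups did not overlap, and it rose by 0.44 (SE 0.117, adjusted p = 0.0277). Its wild-type mean lay under the minimum, so it entered the test only through the group in which it was high, and its call carries no weight as support for a difference. The call was lost when wild-type replicate 1, wild-type replicate 2 or DKO replicate 2 was left out (adjusted p = 0.0554, 0.205 and 0.0624), and also with quantile normalization (adjusted p = 0.0962) and no filter (adjusted p = 0.156). Of its 50-base stretches 59.6% also occur in another receptor segment, most often in Trav9d-1, and how reads common to both were counted is not stated.

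**Figure D1:**
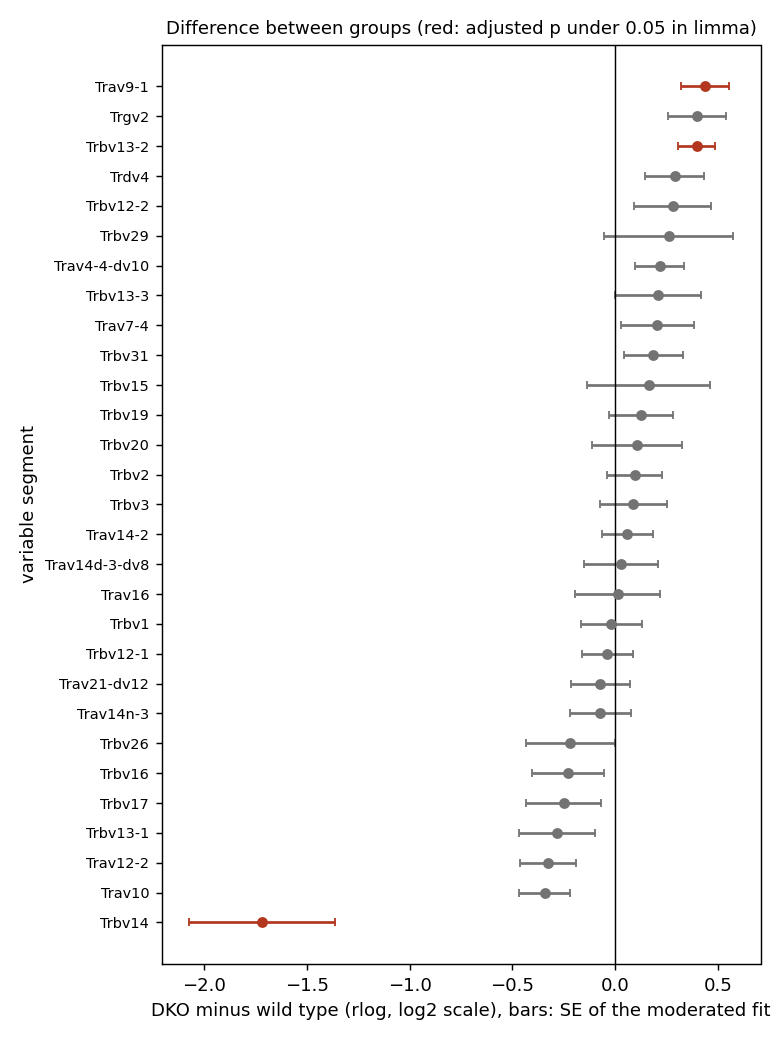
Difference between the groups for the 29 tested variable segments. The x axis gives DKO minus wild type on the rlog (log2) scale with bars of 1 SE from limma, the y axis lists the segments, and red points have an adjusted p under 0.05. Trbv14 stands apart at -1.72, and the other segments lie between -0.34 and 0.44.

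The other beta segments showed little difference between the groups and much within them. All 15 had groups that overlapped, with differences from -0.28 to 0.28 and adjusted p-values of 0.371 or more. Over all genes tested the groups did not overlap for 55.3%. The summed level of the 17 beta segments, taken as the log2 of the sum of unlogged rlog values, was 11.21 and 11.38 in wild type and 11.25 and 11.42 in DKO. The sums overlapped between the groups. Of the constant segments, Trbc1 lay slightly higher and Trbc2 lower in both DKO samples than in either wild-type sample, and neither passed.

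Within the DKO group, the replicates differed by at least 0.5 for 10 of the 17 beta segments (58.8%), and within wild type for 4 (23.5%). Among 7159 other genes at the same levels (rlog 5 to under 9), those shares were 1.68% and 1.08%. The median difference between DKO replicates was 0.59 for the beta segments and 0.12 for the other genes, and between wild-type replicates it was 0.16 and 0.099. The DKO difference was the larger one for 12 of the 17 segments, and for 55.0% of the other genes. Replicate spread was not particular to beta segments or to DKO. Over the 10 tested alpha segments the median difference was 0.27 in wild type and 0.25 in DKO. Other genes with a mean rlog of 4 to under 5 had medians of 0.10 and 0.13. The DKO difference was the larger one for 8 of the 10 alpha segments. These values describe 2 pairs of samples, and the difference between the groups in replicate spread was not tested. The fit draws the spread of each gene towards that of all genes, so p-values of segments with wide spread can be too small.

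The DKO replicates leaned towards different segments. At a difference of at least 0.5, 4 beta segments were higher in DKO replicate 1. Trbv29 was at 6.33 in DKO replicate 1 and 5.10 in DKO replicate 2, with 5.15 and 5.76 in wild type. Trbv20 was at 6.03 and 5.17 in those DKO replicates, Trbv13-3 at 7.56 and 6.73, and Trbv3 at 7.90 and 7.31. Each of these 4 segments had its highest value of the 4 samples in DKO replicate 1 and its lowest in DKO replicate 2.

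The opposite lean, by at least 0.5, was seen for 6 segments. Trbv15 was at 7.79 in DKO replicate 1 and 9.02 in DKO replicate 2, with 8.51 and 7.97 in wild type. Trbv26 was at 6.22 and 7.10 in the DKO replicates, Trbv17 at 4.60 and 5.28, and Trbv12-2 at 7.42 and 8.08. Trbv16 was at 6.21 and 6.84 and Trbv13-1 at 6.65 and 7.23. In Trbv12-2 the lowest and in Trbv13-1 the highest of the 4 values was a wild-type sample. At any size of difference, 8 of the 17 beta segments were higher in DKO replicate 1 and 9 in DKO replicate 2. For 10 of the 17 beta segments (58.8%) the highest and the lowest of the 4 values were both DKO samples, beside 12.6% of the other genes at these levels. DKO replicate 2 was also the sample with high Cd8b1, and the part of CD8 T cells in its segment levels was not tested.

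**Figure D2:**
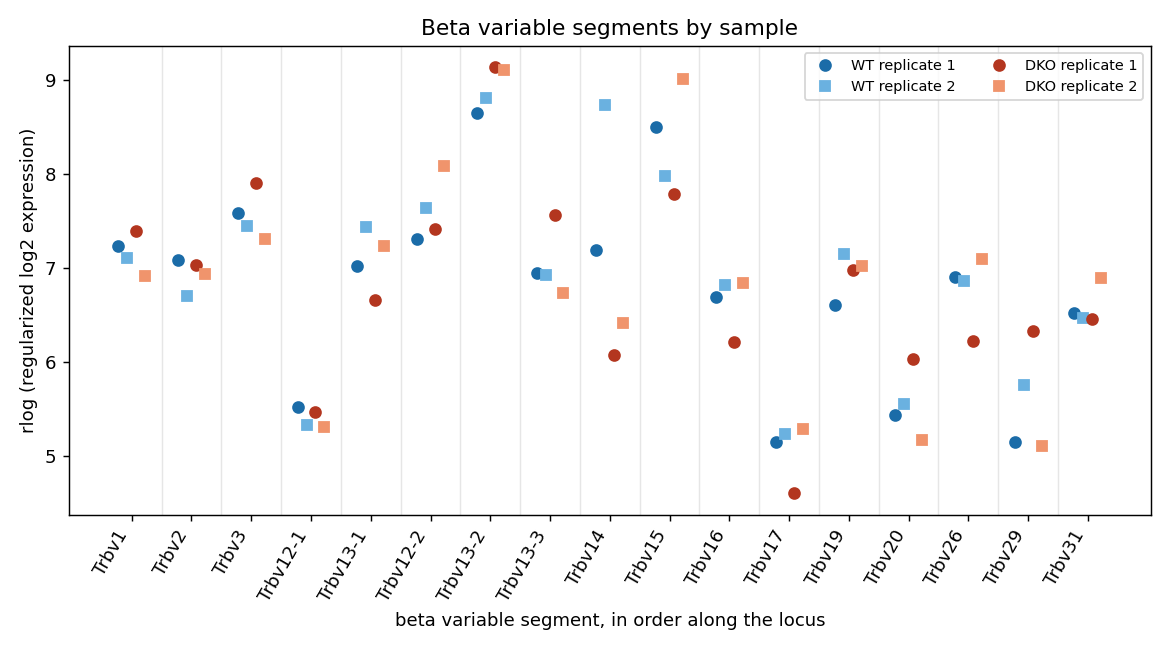
Rlog of the 17 tested beta segments in each sample, ordered along the locus on the x axis. Trbv14 is high in wild-type replicate 2 (8.74), Trbv13-2 is higher in both DKO samples, and the DKO replicates part in Trbv15 and Trbv29.

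**Figure D3:**
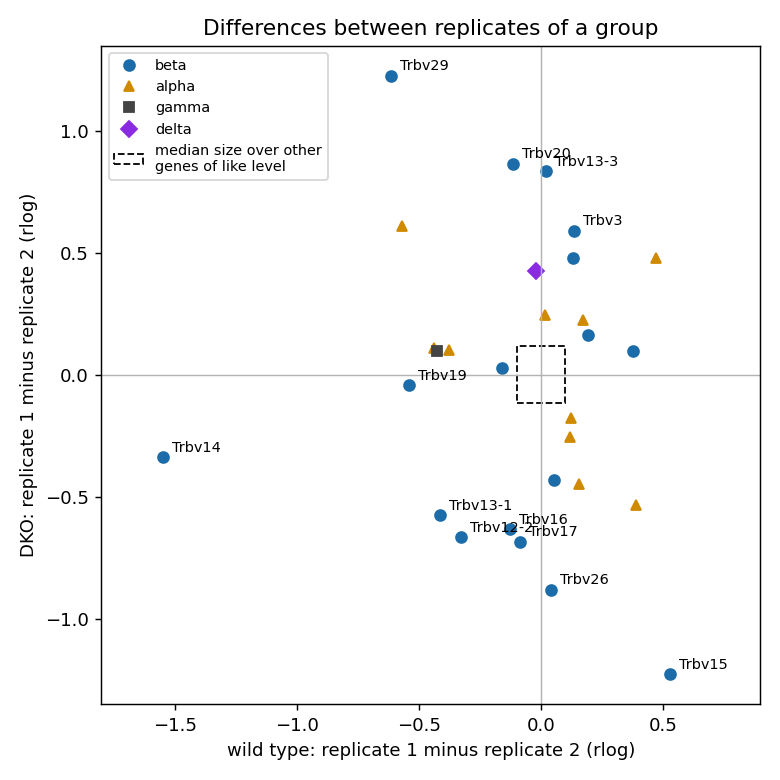
Replicate 1 minus replicate 2 for each tested segment, wild type on the x axis and DKO on the y axis, both in rlog. The dashed box spans the median size of that difference over other genes of like level (0.099 and 0.12), and the 17 beta segments all lie outside it. The box marks medians, so many of those other genes also lie outside it, and their share was not computed.

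In wild type the replicates differed by at least 0.5 for Trbv14 (7.19 and 8.74), Trbv29 (5.15 and 5.76), Trbv19 (6.61 and 7.15) and Trbv15 (8.51 and 7.97). Only Trbv15 of these was higher in wild-type replicate 1. Trbv19 was at 6.98 and 7.03 in the DKO replicates, inside the wild-type range. Trbv12-1, Trbv2 and Trbv31 were among the segments that varied least, with values of 5.30 to 5.52, 6.70 to 7.08 and 6.46 to 6.89 over the 4 samples. Trbv1 lay between 6.92 and 7.39. Trbv31 is the 1 tested beta segment on the minus strand, at chr6:41557691-41558452.

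Per length, with the rlog mean lowered by the log2 of the exon length in kilobases, the tested beta segments lay between 6.49 (Trbv17) and 10.48 (Trbv13-2). Trbv15 followed Trbv13-2 at 9.76 and Trbv12-2 at 8.99. As shares of the summed beta level (unlogged rlog, without length), Trbv13-2 held 16.9% and 16.8% in wild type and 23.2% and 20.2% in DKO. Trbv14 held 6.15% and 15.9% in wild type and 2.78% and 3.12% in DKO. Trbv15 held 15.3% and 9.41% in wild type and 9.11% and 18.9% in DKO, with the higher share in wild-type replicate 1 and DKO replicate 2. The 3 segments with the largest shares held 40.3% and 42.1% in wild type and 42.1% and 49.1% in DKO. Because rlog draws values together, these shares are drawn together too, and no test was made of them.

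Detection in the beta locus followed the annotation. Of 22 beta segments annotated as functional genes 17 had a mean of at least 4, and of 13 annotated as pseudogenes 0 did. The functional genes under the minimum were Trbv4, Trbv5, Trbv21, Trbv23 and Trbv30, with means of 1.13, 0.16, 2.06, 3.19 and 0.85. Over all loci 24 of 34 pseudogenes were listed at 0 in all 4 samples, and the highest was Trbv24 with a mean of 3.62. Trbd1 and Trbd2, the beta diversity segments, did not pass (differences 0.20 and -0.12). Of 80 joining segments 5 were tested, all of the beta locus, and 1 rose, beside 9.92% of all genes tested. This was Trbj1-2, which rose by 0.39 (SE 0.111, adjusted p = 0.0382), from 5.26 and 5.29 to 5.63 and 5.70.

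Alpha segments were read far below their constant segment. The 10 tested members had values between 3.73 and 4.97, and per length their means lay between 5.24 and 5.85, beside 11.97 for Trac. In the beta locus the gap was smaller, with the constant segments at 12.00 (Trbc1) and 12.99 (Trbc2) per length and the segments at 6.49 to 10.48. The highest alpha segments per length were Trav14d-3-dv8 (5.85), Trav14n-3 (5.83) and Trav21-dv12 (5.81), which lie within 0.040 of each other and cannot be ordered given differences between replicates of up to 0.48.

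The alpha locus of the reference genome holds several near copies of the same segments. Trav14n-3 and Trav14d-3-dv8 differ at 10 of 309 aligned bases of the variable exon. Of the 128 alpha segments 118 share at least 1 stretch of 50 bases with another receptor segment, against 4 of the 35 beta segments. For 40 alpha segments every 50-base stretch occurs elsewhere in the receptor loci, and 39 of these 40 were listed at 0 in all 4 samples. Of the 10 alpha segments with no shared stretch 2 were listed at 0, of the 43 with some but under 50% shared 7 were, and of the 35 with 50% to under 100% shared 7 were. Segments with no shared stretch were low too, with a median of the mean rlog of 0.90 and 1 of 10 at 4 or more. In the partly shared classes the medians were 1.84 and 1.33, and 5 of 43 and 4 of 35 reached 4. These medians include segments listed at 0. Read length and the handling of reads that match several places are not stated in these sources, and the part of shared sequence in the low alpha levels was not tested beyond these counts. Levels of alpha segments with near copies are uncertain for that reason. Trav21-dv12, Trdv4 and all but 3 of the tested beta segments share no 50-base stretch.

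**Figure D4:**
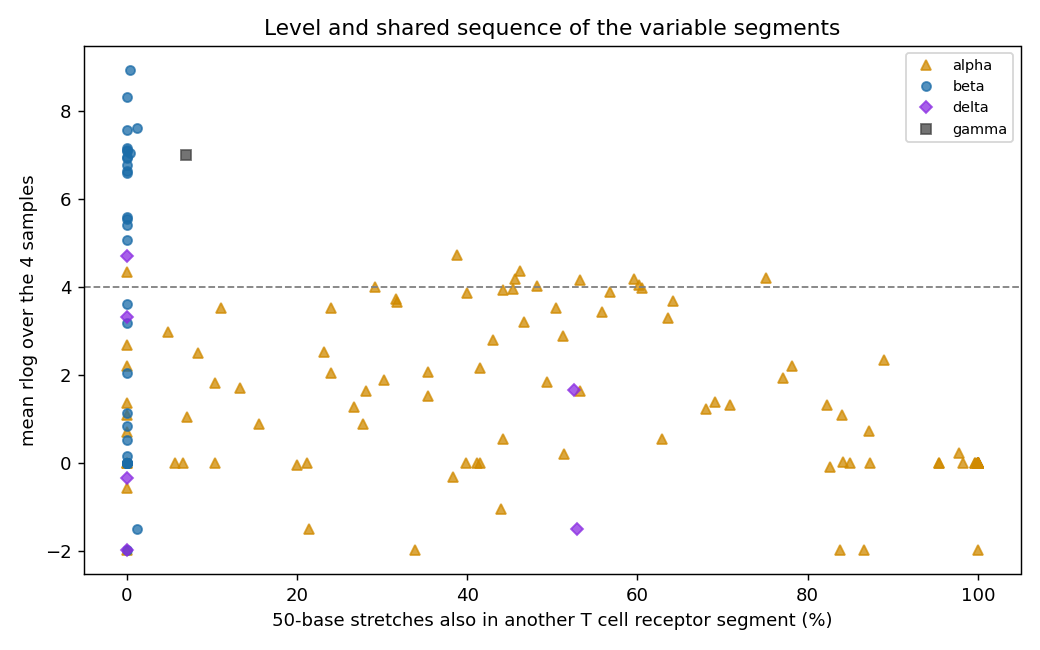
Mean rlog of all 170 variable segments (y axis) against the percentage of their 50-base stretches that also occur in another receptor segment (x axis). Of the 40 alpha segments at 100%, 39 are listed at 0 in all 4 samples and Trav4d-3 has a mean of -1.97. A listing at 0 need not be a higher level than a value under 0, since read counts were not analysed. Beta segments lie near 0%, and the dashed line is the minimum of 4 for testing.

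Among the alpha segments that did not pass, differences ran from -0.34 to 0.22. Trav10 was at 4.30 and 4.13 in wild type and at 3.99 and 3.76 in DKO (difference -0.34, SE 0.123, adjusted p = 0.0945). Trav12-2 was at 3.98 and 4.36 in wild type and at 3.89 and 3.79 in DKO (difference -0.33, adjusted p = 0.149). Trav4-4-dv10 was at 4.05 and 4.03 in wild type and at 4.38 and 4.14 in DKO (difference 0.22, adjusted p = 0.286). In these 3 of the 9 the groups did not overlap, beside 55.3% of all genes tested. Trav10 and Trav12-2 reached the minimum through wild type only, the group in which they were high. In the other 6 the groups overlapped: Trav16, for example, was at 3.74 and 4.30 in wild type and at 4.34 and 3.73 in DKO. Just above the minimum lay Trav10, Trav16 and Trav12-2 (means 4.05, 4.03 and 4.00), and just below it Trav8-1, Trav13-1 and Trav5-4 (3.98, 3.96 and 3.93).

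**Figure D5:**
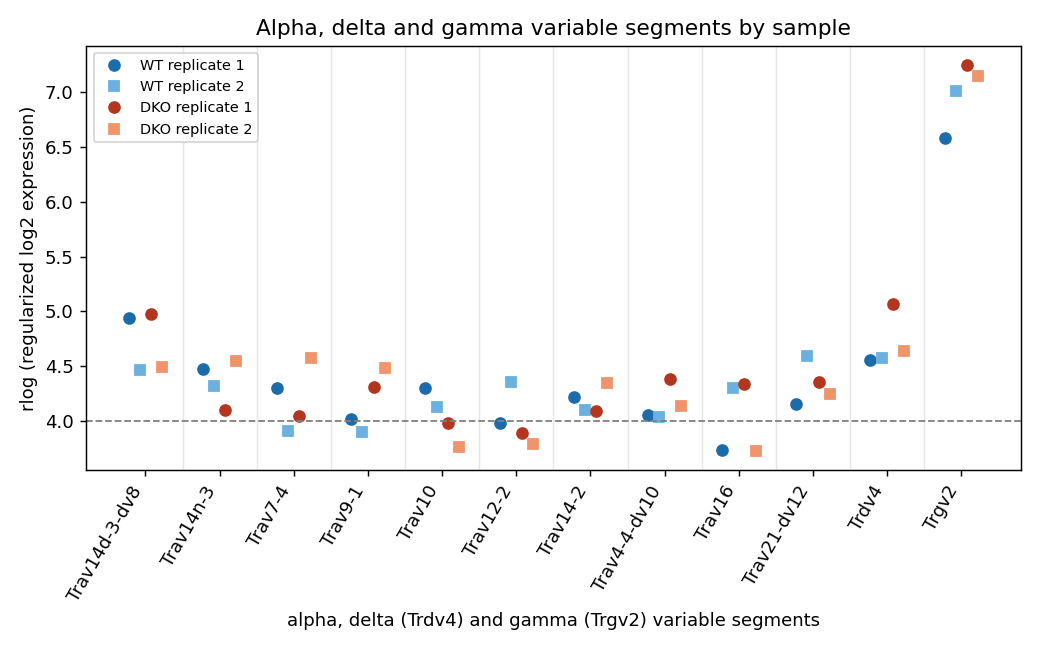
Rlog of the 10 alpha segments, Trdv4 and Trgv2 in each sample. The alpha values lie between 3.73 and 4.97, close to the dashed minimum for the mean, and Trgv2 stands at 6.58 to 7.24.

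Trgv2 encodes a gamma variable segment on the minus strand at chr13:19336573-19337167. It stood at 6.58 and 7.01 in wild type and at 7.24 and 7.15 in DKO, with no overlap between the groups, and the difference of 0.40 (SE 0.140) did not pass (adjusted p = 0.0883). It passed without wild-type replicate 2 (adjusted p = 0.0107) and without DKO replicate 2 (adjusted p = 0.0354). The annotation names 6 further gamma variable segments with the older prefix Tcrg-V, which the choice by symbol left out. Of those, Tcrg-V4 was at 5.48, 5.59, 5.62 and 5.63 and Tcrg-V1 at 4.06, 4.12, 4.59 and 4.23 in wild-type replicates 1 and 2 and DKO replicates 1 and 2, and neither passed (adjusted p = 0.662 and 0.143).

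The gamma constant segments moved in different directions. Tcrg-C4 rose from 7.51 and 7.85 to 8.51 and 8.32 (log2 fold change 0.74, SE 0.125, adjusted p = 0.00193), and Tcrg-C3 rose from 4.04 and 3.99 to 4.90 and 4.91 (0.90, SE 0.109, adjusted p = 0.000228). Tcrg-C1 fell from 8.34 and 8.56 to 8.11 and 8.12 (-0.34, SE 0.103, adjusted p = 0.0473), and Tcrg-C2 did not pass (0.044, adjusted p = 0.883). Relative to the mean of these 4 segments in the same sample, the difference of Trgv2 was 0.066 and its groups overlapped. That mean was raised in DKO by Tcrg-C3 and Tcrg-C4, while Tcrg-C2 hardly moved. Which constant segment the Trgv2 transcripts carry was not tested. The value of 0.066 therefore does not show that the difference of Trgv2 follows its own constant segment.

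Trdv4, a delta segment at chr14:54074905-54075515, was at 4.56 and 4.58 in wild type and at 5.07 and 4.64 in DKO (difference 0.29, SE 0.142, adjusted p = 0.226), without overlap. Its DKO mean rested on DKO replicate 1, and without that sample the difference was 0.077. Relative to Trdc in the same sample the difference was -0.11, and the groups overlapped. Trdc, the delta constant segment, was at 6.26 and 6.19 in wild type and at 6.24 and 7.00 in DKO (adjusted p = 0.225), so that a different DKO replicate was the high one. Of 6 tested markers of gamma delta T cells 3 rose and 1 fell, beside 9.92% and 4.85% of all genes tested. They include the constant segments Tcrg-C4 and Tcrg-C1, already given above. The others were Sox13, a transcription factor (0.61, adjusted p = 0.00414), and Cd163l1, a scavenger receptor (0.94, adjusted p = 0.00710). Their summed level was 10.46 and 10.64 in wild type and 10.78 and 11.02 in DKO, and the part of cell numbers in the levels of Trgv2 and Trdv4 was not tested.

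Set against the constant segments of the same chain in the same sample, all segments of a chain shift by the same amount. That amount is set by the change of the constant segments alone. They were Trac for alpha, the mean of Trbc1 and Trbc2 for beta, the mean of 4 segments for gamma, and Trdc for delta. The differences of the 27 alpha and beta segments thus moved upwards together, and those of Trgv2 and Trdv4 downwards. These directions and the shifted medians are not results about the variable segments. The median difference was then 0.28 for the 10 alpha segments, beside 0.021 as deposited, and 0.24 for the 17 beta segments, beside 0.095. Trbv14 was at -1.58, Trbv13-2 at 0.54 and Trav9-1 at 0.70 on this scale, with groups that did not overlap. The groups did not overlap for 8 of the 29 segments, among them Trav9-1, which passed the filter through DKO alone. The number was the same with the values as deposited (27.6%, beside 55.3% of all genes tested), but only 4 were in both sets. No share over all genes was computed on the relative scale, so the count there has nothing to be set beside. Trav7-4 (0.47), Trav14-2 (0.32), Trbv12-2 (0.42) and Trbv31 (0.33) had groups that parted on this scale only. Trav10, Trav12-2, Trgv2 and Trdv4 had groups that overlapped on this scale only. The shift of their chain changed the sign of 5 of the 29 differences. Trav14n-3, Trav21-dv12, Trbv1 and Trbv12-1 turned positive and Trdv4 turned negative. No test was made of these relative values.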

How the data were processed

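Stranded mRNA libraries of 4 samples of lamina propria mononuclear cells were sequenced, per the labels' protocols. The authors deposited log2 values made with the rlog transformation of DESeq2, per the table's name. The submitters' processing notes name STAR 2.5.4a and BWA 0.7.14-r1136, featureCounts of Subread 1.5.2, cutadapt 1.9.1, bcl2fastq 2.17.1.14 and build GRCm38, with no parameters. A further 2 columns fit no label and were left out, though the transformation may have used them. Read counts were not analysed, and depth is unknown.

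Groups come from the treatment in the labels, and replicate numbers follow the order of entries and pair no samples. Identifiers were matched to GENCODE M21 (GRCm38), 48058 of 48526. Of the 48526 genes, 13528 had mean rlog 4 or more (median 8.33 to 8.35 per sample) and were fitted with limma 3.58.1 in R 4.3.3 with group as the only term and a variance trend (8.9 prior and 2 residual degrees of freedom), with two-sided p-values adjusted by Benjamini-Hochberg over all of them and called under 0.05. The fit was tested on simulated data. That test gave each gene the spread typical of its level, so it says nothing of segments with wider spread. Alternatives were no filter, a mean of at least 6, no trend, a robust variance, median centring, quantile normalization, sample weights, each sample left out, and values relative to constant segments. Settings for sums and replicate differences, and counts over segments at the minimum in both groups, were chosen after seeing the data. Shared 50-base stretches were counted among receptor segment transcripts, on 1 strand, and identities came from global alignment (Biopython 1.88). Python 3.11.15, pandas 2.3.3 and matplotlib 3.10.9 were used.

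The text names segments that passed, the 3 highest per length in each locus, up to 5 per direction with the largest differences without overlap, the 6 with the largest replicate differences, those next to the minimum, and all tested gamma and delta segments. Other segments and marker genes were named after their values were seen. Members and lists were chosen with earlier results of these data known.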

Additional observations from a re-analysis of the deposited data

How the results depend on the processing

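The fit as designed called 1 segment lower and 2 higher. With no filter on low values 0 were called lower and 0 higher, and with a minimum mean of 6 the higher calls numbered 1. A robust variance estimate gave 0 lower calls, and quantile normalization gave 2 lower and 1 higher. In fits that each left out 1 sample, lower calls ran from 1 to 6 and higher calls from 0 to 7. Calls under no trend, median centring and sample weights numbered as in the design. The median difference of the alpha segments was -0.080 with quantile normalization and 0.28 relative to constant segments, and ran from -0.039 to 0.062 without 1 sample. That of the beta segments was 0.24 relative to constant segments and ran from -0.077 to 0.049 without 1 sample. The difference of summed alpha levels was -0.00056 with no filter and -0.078 with quantile normalization, and a mean of at least 6 left no alpha segment. The shift relative to constant segments is set by the change of those segments and is the same for all segments of a chain. The cause of the other shifts was not tested, beyond the change of genes or samples that each setting makes.

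With quantile normalization the differences of Trav14-2, Trav14d-3-dv8, Trav16, Trbv2 and Trbv20 turned negative, at -0.037, -0.10, -0.057, -0.0091 and -0.048. Leaving out each sample in turn, 21 of the 29 segments changed direction at least once, and none of these 21 was called in the fit as designed. The alpha segments ranged from -0.068 to 0.19 (Trav14-2), -0.21 to 0.27 (Trav14d-3-dv8), -0.30 to 0.15 (Trav14n-3), -0.29 to 0.32 (Trav16), -0.29 to 0.15 (Trav21-dv12) and -0.061 to 0.47 (Trav7-4). The beta segments ranged from -0.26 to 0.22 (Trbv1), -0.095 to 0.28 (Trbv2), -0.21 to 0.38 (Trbv3), -0.14 to 0.060 (Trbv12-1), -0.053 to 0.61 (Trbv12-2), -0.57 to 0.0044 (Trbv13-1) and -0.21 to 0.63 (Trbv13-3). Those further along the locus ranged from -0.45 to 0.78 (Trbv15), -0.54 to 0.090 (Trbv16), -0.59 to 0.091 (Trbv17), -0.15 to 0.39 (Trbv19), -0.33 to 0.54 (Trbv20), -0.66 to 0.22 (Trbv26), -0.35 to 0.87 (Trbv29) and -0.030 to 0.40 (Trbv31). The 3 called segments kept their direction in every fit run. A difference between groups that do not overlap cannot change direction when 1 sample is left out. For these 3, those fits could show nothing else. No paired analysis was possible because the replicate numbers follow the order of entries and pair no samples. Unknown depth limits how far low alpha levels can be read.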
